A study of Drosophila melanogaster with 12 samples.

Results

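The genes described here encode 9 effector peptides of the fly's humoral response and 1 recognition protein, followed through 4 groups of Drosophila melanogaster larval carcasses. They were taken by name from the gene column of both deposited tables, after rows naming several genes were split. The antifungal peptide gene Drs, its relative dro5, the antibacterial peptide genes Dro, AttA, AttB, AttC and AttD, Listericin, the stress peptide gene TotA and the recognition gene PGRP-SA each matched 1 row per table. They make up 10 of 13650 rows.

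The study asked which larval transcripts depend on Activin signaling, a branch of the TGF-beta pathway, in the body wall. Its 12 RNA-seq libraries, 3 per group, came from the muscle and epidermis left after the gut was dissected from late foraging larvae of the last instar. In the first experiment, smox larvae of the genotype Smox(Smad2)F4/Y lacked most transcript of the Smad protein Smox and were male by genotype. They were compared with w1118 larvae, the stock used as wild type, whose sex was not stated in the sources used here. Both ate yeast paste on apple juice plates and were not treated. In the second, baboACT larvae (tub-Gal80ts/+;MhcGal4/baboACT) expressed an activated form of the Activin receptor Baboon under the muscle driver MhcGal4. Their reference, called MhcGal4, was tub-Gal80ts/+;MhcGal4/+, so both groups carried the driver and Gal80ts, a temperature-sensitive inhibitor of Gal4. Both ate vial food and were held at 30 °C for 12 h before RNA was extracted. Number of animals per library, larval age and infection status were not stated in the sources used here, and no group was labelled as infected or wounded.

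In flies, bacterial and fungal cell wall molecules are sensed by peptidoglycan recognition proteins and related sensors, which feed the Toll and Imd pathways. These pathways release the NF-kappaB factors Dif, Dorsal and Relish, which switch on antimicrobial peptide genes, chiefly in the fat body and, locally, in barrier epithelia. Drs is the standard readout of Toll and Dro and the attacins respond mainly to Imd, whereas TotA and the other Turandot genes respond to heat, wounding and other stress through JAK-STAT signaling.

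Each table gives 1 FPKM per gene and group, the fragment count scaled to transcript length and to the mapped fragments. No value per library was available, so the FPKM printed below carry no spread, and read depth is unknown. A gene is said to have risen, fallen or been called where its q-value in the authors' deposited table was under 0.05. A called gene with no q printed had the lowest q of its table, 0.000152 in smox and 0.000217 in baboACT. Whether the 3 libraries of each group represent different animals is not labelled, and part of the spread behind these q-values may be technical. The tables were made separately and the experiments differ in food, temperature and background, and levels are therefore not compared between them. Smox itself had 23.9 FPKM in w1118 against 1.40 FPKM in smox, and babo had 13.2 FPKM in MhcGal4 and 15.6 FPKM in baboACT. Of 8 muscle marker genes, 2 rose and 1 fell among 6 tested in smox, where 18.5% of all rows tested rose and 39.3% fell. In baboACT 4 of 5 tested fell, beside 14.8% of all rows tested, and the median of the tested muscle genes was -0.45 on the log2 scale. Mlc1 stood at 6814 and 6861 FPKM in w1118 and smox (q = 0.899, the authors' deposited table) and fell from 8429 to 6080 FPKM in baboACT. Mhc, Mlc2 and Act57B had an FPKM of 0 in at least 1 group, so such a 0 in these tables need not mean that a transcript was absent.

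In smox carcasses dro5 rose about 298-fold, Dro and PGRP-SA rose about 1.76-fold and 2.23-fold, and Listericin and TotA fell by about 9.56-fold and 7.59-fold. Of the 10 genes, 3 rose and 2 fell, 3 were tested and not called, and AttC and AttD were not tested by the authors. Of all 8218 rows tested there, 57.8% were called, 18.5% higher and 39.3% lower, so a count of 5 called among 8 tested lies near the background. Called folds of at least 2 in either direction were rarer, at 9.72% of rows tested, and 4 of the 8 genes tested had one. At a stricter q under 0.01 the same count of 5 genes stood against 47.3% of rows tested. The median log2 fold change of the 10 genes was 0.70, and that of all rows tested was -0.14.

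In baboACT carcasses dro5 rose about 17.9-fold and TotA about 1.35-fold, while Drs, AttA, Dro and AttC fell, by about 11.9-fold, 3.82-fold, 2.96-fold and 1.61-fold. AttB, Listericin and PGRP-SA were tested and not called, and AttD was not tested. Of 8262 rows tested, 43.5% were called, 28.7% higher and 14.8% lower, against 2 higher and 4 lower among the 9 genes tested. Called folds of at least 2 made up 6.86% of the rows tested, and 4 of the 9 genes tested had one. At a q under 0.01, 3 of the 9 genes tested and 33.9% of rows tested were called. The median log2 fold change of the 10 genes was -0.95, and that of all rows tested was 0.08. The median over the 10 genes includes AttD, which the authors did not test, and was -0.68 over the 9 genes with a mean of at least 1 FPKM.

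**Figure D1:**
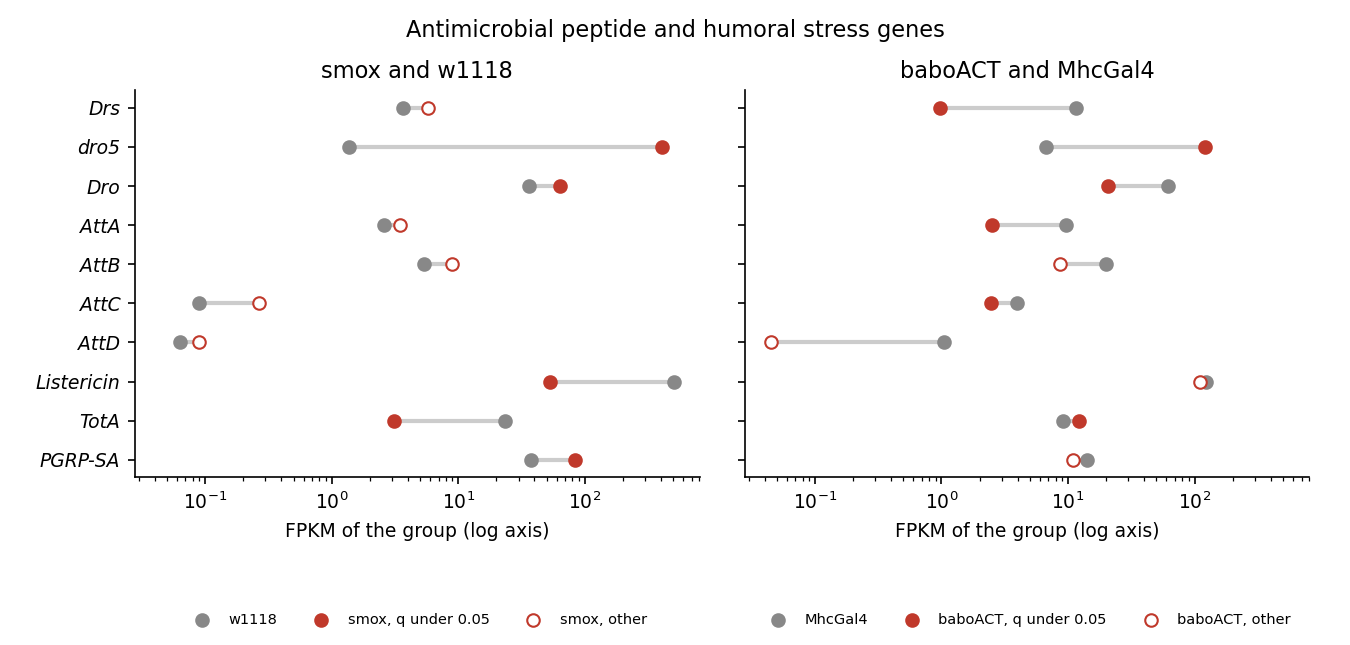
FPKM of the 10 genes on a log axis, with the reference group in grey and the smox (left) or baboACT (right) group in red; filled red points had q under 0.05 in the authors' deposited table, open ones did not or were not tested, and each point is 1 group value without error. The longest lines are those of dro5, Listericin and TotA on the left, and of dro5, Drs and the untested AttD on the right.

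The antifungal peptide drosomycin is encoded by Drs, at 3369569 to 3369942 on 3L (the tables' own coordinates, of an unnamed build). Drs stood at 3.65 FPKM in w1118 against 5.72 FPKM in smox, or 0.65 as a log2 fold change, and was not called (q = 0.201, the authors' deposited table). It stood at 11.7 FPKM in MhcGal4 and 0.982 FPKM in baboACT, or -3.57 as a log2 fold change (q = 0.010, the authors' deposited table). Drs was thus lower with activated Baboon than without it, and its difference between w1118 and smox did not pass the test. With a pseudocount of 1 FPKM that fall was -2.68.

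The gene dro5, now named Drsl5, encodes a drosomycin-like peptide and lies on 3L from 3316809 to 3317144. It was lower in both reference groups, at 1.36 FPKM in w1118 and 6.75 FPKM in MhcGal4. It stood at 406 FPKM in smox, or 8.22 as a log2 fold change (q = 0.00585, the authors' deposited table), and at 121 FPKM in baboACT, or 4.16 as a log2 fold change. By level, dro5 moved from rank 7684 to rank 288 among 13650 rows from w1118 to smox, and from rank 5552 to rank 707 from MhcGal4 to baboACT. It was the only one of the 10 genes that was called higher in both experiments. With a pseudocount of 1 FPKM the log2 fold changes were 7.43 and 3.98.

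Drs and dro5 belong to a group of 7 related genes that lie within 55.6 kb on 3L, interspersed with unrelated genes. The closest neighbor of dro5 among them, dro4, whose locus starts 1172 bases before that of dro5, was called higher in smox, with 0 FPKM in w1118 and 20.0 FPKM in smox. It stood at 0.448 FPKM in MhcGal4 and 0.335 FPKM in baboACT and was not tested in that table. The other family members, dro2, dro3, dro6 and Drs-l, were listed at 0 in w1118 and smox, and dro3, dro6 and Drs-l also in MhcGal4 and baboACT, where dro2 reached 0.205 FPKM in baboACT alone. A listed 0, for these genes and for dro4 in w1118, need not mean that a transcript was absent. CG12077, which lies next to dro5 on the side toward Drs, stood at 2.98 and 2.13 FPKM in w1118 and smox (q = 0.0724, the authors' deposited table). In baboACT, where dro5 rose, CG12077 was not called either (q = 0.161, the authors' deposited table). The large gene kst, the neighbor of Drs, rose from 15.9 to 27.3 FPKM in smox and stood at 21.1 and 19.1 FPKM in MhcGal4 and baboACT (q = 0.157, the authors' deposited table).

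**Figure D2:**
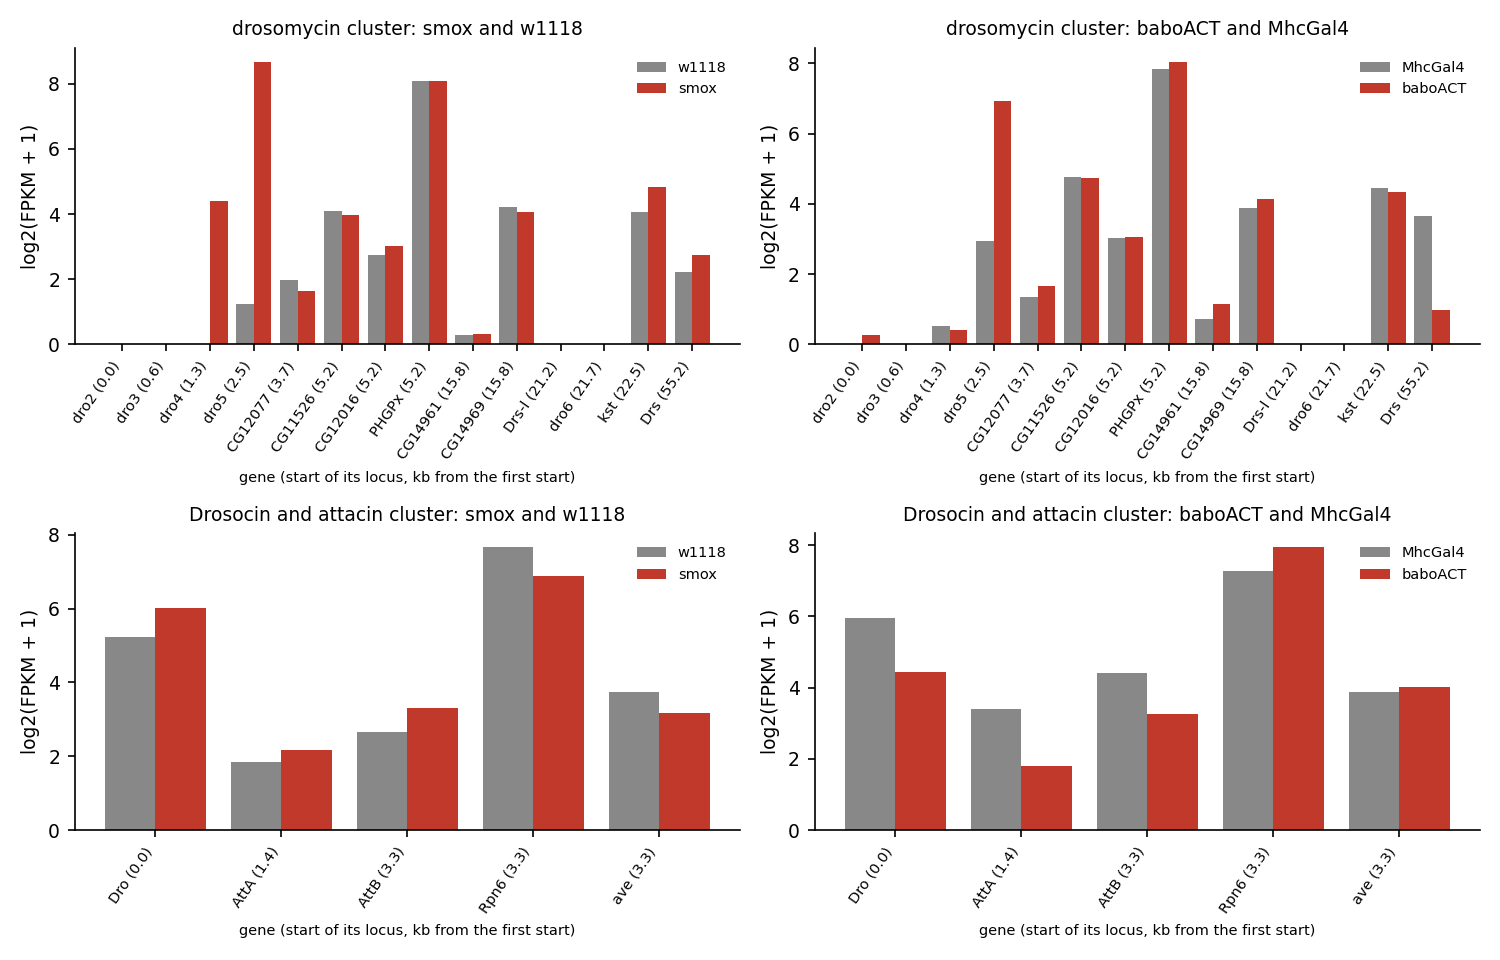
Levels as log2(FPKM + 1) of every gene listed between dro2 and Drs (top) and between Dro and AttB (bottom), ordered by position and labelled with the start of their locus in kb from the first start, in the reference group (grey) and the changed group (red). In the top row the red bars of dro5 exceed the grey ones in both experiments and that of dro4 does so in smox; in the bottom row Dro, AttA and AttB are higher in red in smox and lower in red in baboACT.

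Drosocin, a proline-rich peptide active against Gram-negative bacteria, is encoded by Dro on 2R from 10633461 to 10633821. Dro stood at 36.5 FPKM in w1118 against 64.2 FPKM in smox, or 0.81 as a log2 fold change. It stood at 61.3 FPKM in MhcGal4 and 20.7 FPKM in baboACT, or -1.56 as a log2 fold change. Dro was therefore called in both experiments, higher without Smox and lower with activated Baboon.

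The attacins are glycine-rich antibacterial proteins, and AttA and AttB, a pair of similar neighboring copies, lie directly beyond Dro within 7.31 kb. AttA, from 10634867 to 10635698 on 2R, stood at 2.60 FPKM in w1118 against 3.46 FPKM in smox, or 0.41 as a log2 fold change (q = 0.174, the authors' deposited table). It fell from 9.56 FPKM in MhcGal4 to 2.50 FPKM in baboACT, or -1.93 as a log2 fold change. AttB stood at 5.32 FPKM in w1118 against 8.96 FPKM in smox, or 0.75 as a log2 fold change (q = 0.258, the authors' deposited table). It stood at 20.1 FPKM in MhcGal4 and 8.62 FPKM in baboACT, or -1.22 as a log2 fold change, and was not called (q = 0.132, the authors' deposited table).

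Reads from similar copies could be assigned to either, so the values of AttA and AttB are uncertain one by one. Summed over the pair, the log2 fold change was 0.65 in smox and -1.41 in baboACT. AttB also shares its locus, from 10636728 to 10640774, with the proteasome gene Rpn6 and with ave, and Rpn6 moved the opposite way. Rpn6 fell from 200.3 to 117 FPKM in smox and rose from 152 to 243 FPKM in baboACT.

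AttC, whose locus spans 2R from 9281210 to 9286873 and is shared with CG4744, had 0.0895 FPKM in w1118, 0.267 FPKM in smox and no test there. It fell from 3.96 FPKM in MhcGal4 to 2.47 FPKM in baboACT, or -0.68 as a log2 fold change (q = 0.0170, the authors' deposited table). AttD, on 3R from 13450990 to 13451810, encodes an attacin without a signal for secretion. It was at or under 1.04 FPKM in all groups, with 0.0629 FPKM in w1118, 0.0890 FPKM in smox, 1.04 FPKM in MhcGal4 and 0.0446 FPKM in baboACT, and was not tested in either table. Its log2 fold change of -4.55 in baboACT rests on that last low value and was -0.97 with a pseudocount of 1 FPKM. Dro, AttA, AttB, AttC and AttD all had values above the reference in smox and below it in baboACT, although Dro alone was called in both. Among all genes tested in both experiments, 65.0% had log2 fold changes of opposite sign.

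Listericin, an antibacterial peptide known for acting on Listeria and for its dependence on JAK-STAT signaling and the sensor PGRP-LE, was the most abundant of the 10 genes in w1118 and in MhcGal4. Its gene lies on 2R from 7129250 to 7129700. In w1118 Listericin reached 507 FPKM, at rank 246 of 13650 rows, and fell to 53.1 FPKM, at rank 1267, in smox, or -3.26 as a log2 fold change. It stood at 124 FPKM in MhcGal4 and 110 FPKM in baboACT, or -0.18 as a log2 fold change, and was not called (q = 0.0876, the authors' deposited table).

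TotA, whose product is secreted into the hemolymph under stress, lies on 3R from 16696758 to 16697427. In smox it fell to 3.09 FPKM from 23.5 FPKM in w1118, or -2.92 as a log2 fold change. TotA rose from 9.10 FPKM in MhcGal4 to 12.3 FPKM in baboACT, or 0.43 as a log2 fold change (q = 0.0428, the authors' deposited table), both groups having spent the same time at 30 °C. TotB, TotC, TotE (listed as Victoria), TotF, TotM, TotX and TotZ were each at 0 in 1 or both groups of each experiment, none was tested, and their FPKM summed to at most 0.182 in any group. Most of these values are listed zeros, which in these tables need not mean that a transcript was absent.

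PGRP-SA, the secreted sensor that binds peptidoglycan of Gram-positive bacteria and feeds the Toll pathway, is on the X chromosome, in a locus from 11455562 to 11464355 shared with the RNA polymerase gene RpII215. In smox PGRP-SA rose to 83.3 FPKM from 37.4 FPKM in w1118, or 1.16 as a log2 fold change. It stood at 14.2 FPKM in MhcGal4 and 10.9 FPKM in baboACT, or -0.38 as a log2 fold change, and was not called (q = 0.378, the authors' deposited table). RpII215, from the same locus, stood at 17.7 and 18.6 FPKM in w1118 and smox and was not called (q = 0.425, the authors' deposited table).

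The experiments share no libraries, and their values can be set side by side. Of the 8 genes tested in both, 6 had log2 fold changes of opposite sign, and among all 7984 genes tested in both the share was 65.0%, so opposite signs were common in these tables. Dro, dro5 and TotA were called in both experiments. Dro was higher in smox and lower in baboACT, TotA the reverse, and dro5 was higher in both. Of the 2473 genes called in both experiments, 79.6% had opposite signs, which places dro5 in the smaller share.

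**Figure D3:**
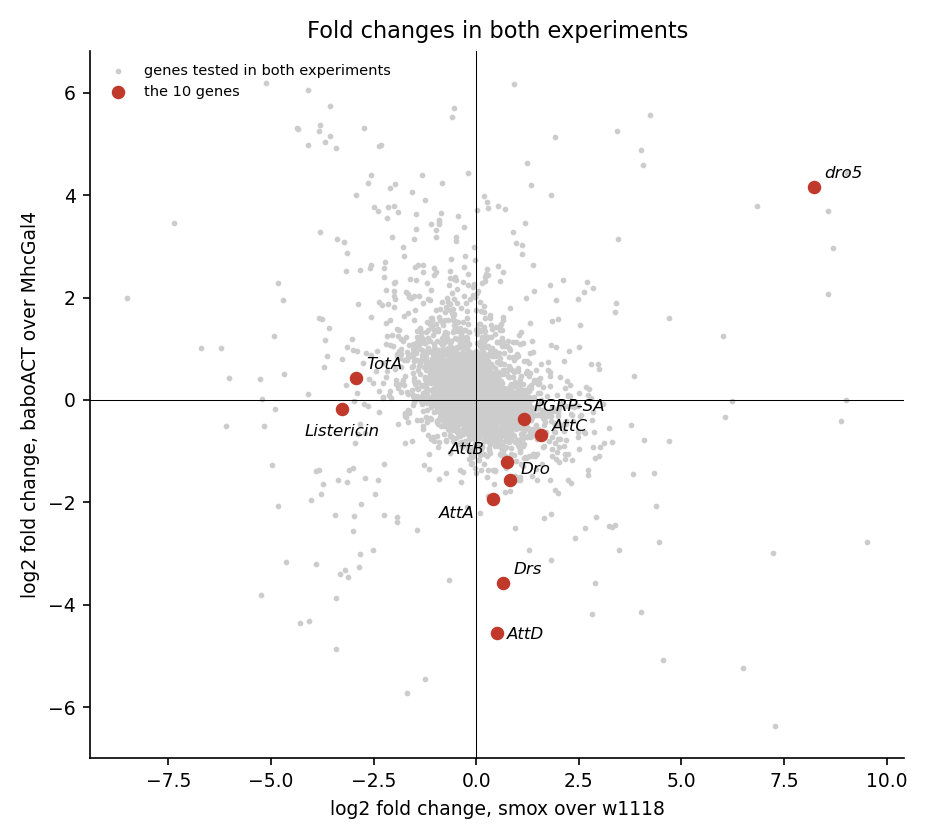
Log2 fold change in smox over w1118 (x axis) against that in baboACT over MhcGal4 (y axis) for the 7984 genes tested in both experiments (grey) and the 10 genes (red), of which AttC and AttD were not tested in 1 or both. dro5 lies at the upper right at 8.22 and 4.16, with CG34193, a grey point, near it at 8.56 and 3.69, Listericin and TotA lie at the left near -3.26 and -2.92, and Drs, Dro, the attacins and PGRP-SA lie at the lower right.

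For each gene, the row nearest to it over the pair of log2 fold changes was sought among rows tested in both tables with a mean of at least 1 FPKM in each. The nearest to dro5 was CG34193, at 0.812, 306, 8.36 and 108 FPKM in w1118, smox, MhcGal4 and baboACT and a distance of 0.58 on the log2 scale, and only 2 of 7767 rows lay within 1 of dro5. The nearest to Drs was Mst87F, at a distance of 0.91 and 2.11, 5.12, 11.8 and 1.56 FPKM in the same order, and no other row lay within 1. The nearest to Listericin was the midgut protease gene Jon25Bi, at a distance of 0.32 and at 78.4, 9.96, 2.20 and 2.18 FPKM. For TotA it was CG10953, at a distance of 0.30. For Dro it was the row CG34423,CG34424,CG9875 (0.16), for AttA CG34301 (0.13), for AttB Ance-4 (0.10), for AttC CG4991 (0.06) and for AttD Drs (0.99). The last 2 rest on untested fold changes from low values. With a pseudocount of 1 FPKM the log2 fold change of AttC in smox was 0.22 instead of 1.58. That of AttD in baboACT was -0.97 instead of -4.55. PGRP-SA, nearest to CG10339 (0.04), had 1140 rows within 1, so its pattern was a common one. Likeness here is over 2 fold changes only.

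Other antimicrobial peptide genes stood at or under 2.68 FPKM in w1118 and smox, and at or under 9.60 FPKM in MhcGal4 and baboACT. The 9 listed were Dpt, DptB, Def, Mtk, CecA1, CecA2, CecB, CecC and Anp. In smox 0 of the 2 tested were called by the authors' Cuffdiff test, and 0 had an unadjusted p under 0.05. Of all rows tested in smox, 57.8% were called. There Dpt stood at 0.459 and 2.39 FPKM (q = 0.130, the authors' deposited table) and Def at 1.48 and 2.68 FPKM (q = 0.374, the authors' deposited table). In baboACT CecA2 alone was called among 7 tested, where 43.5% of all rows tested were called. CecA2 was listed at 2.18 FPKM in MhcGal4 and 0 in baboACT, and a listed 0 need not mean that a transcript was absent. Def, the defensin gene, stood at 9.60 and 4.61 FPKM in MhcGal4 and baboACT (q = 0.119, the authors' deposited table). DptB, a diptericin gene, stood at 4.76 and 4.003 FPKM there (q = 0.596, the authors' deposited table) and Mtk, the metchnikowin gene, at 4.40 and 2.39 FPKM (q = 0.372, the authors' deposited table). CecC stood at 1.83 and 4.09 FPKM in MhcGal4 and baboACT (q = 0.0608, the authors' deposited table). The median log2 fold change over the genes above 0 in both groups was 0.86 in smox and -0.86 in baboACT, from 5 and 7 genes. These medians include untested genes with low values. Over those of them that were tested, the medians were 1.62 in smox, from 2 genes, and -0.57 in baboACT. Over all rows tested they were -0.14 and 0.08.

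Short peptides of the immune hemolymph, among them the Bomanins, are known to be induced by Toll signaling, and none was called. By their current symbols IM1, IM2, IM3 and IM23 are Bomanins, while IM4 and IM14 are named Dso1 and Dso2. IM1 stood at 1.38 and 8.61 FPKM in w1118 and smox (q = 0.0973, the authors' deposited table) and at 4.78 and 0.850 FPKM in MhcGal4 and baboACT (q = 0.163, the authors' deposited table). IM2 had log2 fold changes of 1.91 and -1.76 and IM3 of 4.02 and -4.14 in smox and baboACT, and neither was called. IM4 stood at 0.523 and 0.115 FPKM in w1118 and smox, the opposite direction to IM1, and at 0.728 and 0.377 FPKM in MhcGal4 and baboACT. IM14 was listed at 42.8 FPKM in MhcGal4 and at 0 in the other 3 groups. IM23 was listed at 0 in w1118 and smox and at 1.02 and 0.0916 FPKM in MhcGal4 and baboACT, and IM4, IM14 and IM23 were not tested in either table. In all, 3 of 6 such genes were tested in each table and 0 were called by the authors' Cuffdiff test, nor had any an unadjusted p under 0.05. Of all rows tested, 57.8% were called in smox and 43.5% in baboACT.

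Genes of the Toll, Imd and JAK-STAT pathways were called about as often as other rows. In smox 9 of 17, 11 of 18 and 4 of 7 tested were called, beside 57.8% of all rows tested, and in baboACT 7 of 17, 9 of 18 and 3 of 7, beside 43.5%. Toll pathway genes changed in both directions in each experiment. Of 17 tested in smox, 6 rose and 3 fell, and the median log2 fold change was 0.00. Of all rows tested there, 18.5% rose and 39.3% fell. SPE, the protease that activates the Toll ligand Spz, rose from 1.63 to 3.44 FPKM in smox and fell from 4.72 to 1.60 FPKM in baboACT. The kinase gene pll moved the other way, falling from 14.8 to 7.30 FPKM in smox and rising from 9.53 to 17.2 FPKM in baboACT. Of the 17 genes, 6 rose and 1, SPE, fell in baboACT, with a median of 0.10, where 28.7% of all rows tested rose and 14.8% fell. The protease gene spirit rose there from 15.9 to 69.6 FPKM and the receptor gene Tl from 11.9 to 15.2 FPKM. Of the NF-kappaB factors of this pathway, Dif stood at 6.60 and 6.61 FPKM in w1118 and smox (q = 0.980, the authors' deposited table) and at 5.91 and 6.06 FPKM in MhcGal4 and baboACT (q = 0.832, the authors' deposited table). Expression of cact, whose product holds these factors in the cytoplasm, rose from 70.3 to 94.8 FPKM in baboACT and stood at 78.6 and 72.2 FPKM in w1118 and smox (q = 0.0972, the authors' deposited table).

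Among Imd pathway genes, the PGRP-LC group of sensors rose in smox. Of 18 tested, 6 rose and 5 fell, with a median of 0.05 over those tested. Of all rows tested in smox, 18.5% rose and 39.3% fell. The receptor gene PGRP-LC rose from 31.7 to 50.4 FPKM, PGRP-LA from 9.95 to 23.2 FPKM and PGRP-LF, an inhibitor of the receptor, from 9.29 to 27.2 FPKM. These 3 genes lie next to each other on 3L. The factor gene Rel rose from 46.2 to 71.2 FPKM and PGRP-SB1, an amidase gene, from 1.02 to 4.20 FPKM (q = 0.00267, the authors' deposited table). The intracellular sensor gene PGRP-LE fell from 24.8 to 18.4 FPKM and the kinase subunit gene key from 48.8 to 31.3 FPKM. In baboACT 7 of 18 rose and 2 fell, where 28.7% of all rows tested rose and 14.8% fell. PGRP-LE rose there from 23.3 to 30.5 FPKM, and pirk, an inhibitor of the pathway that it also induces, from 1.76 to 4.24 FPKM. Rel stood at 42.4 and 48.6 FPKM (q = 0.122, the authors' deposited table).

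Of 7 JAK-STAT genes tested in smox, 0 rose and 4 fell, where 39.3% of all rows tested fell, at an unadjusted p under 0.05 also 0 and 4 in Cuffdiff. The factor gene Stat92E fell from 53.8 to 42.6 FPKM, the inhibitor gene Su(var)2-10 from 14.2 to 10.2 FPKM, and the receptor gene dome from 8.26 to 7.23 FPKM and the kinase gene hop from 7.86 to 6.80 FPKM (q = 0.000934 for each, the authors' deposited table). In baboACT Stat92E rose from 47.0 to 60.0 FPKM and dome from 9.55 to 10.9 FPKM (q = 0.0247, the authors' deposited table). CG14225, now named et, an inhibitor of the pathway, fell there from 3.93 to 2.35 FPKM. The ligand genes os, upd2 and upd3 were at or under 0.405 FPKM in every group and were not tested. Socs36E, a target and inhibitor of the pathway, stood at 5.93 and 6.09 FPKM in w1118 and smox (q = 0.687, the authors' deposited table) and at 6.50 and 5.82 FPKM in MhcGal4 and baboACT (q = 0.161, the authors' deposited table).

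Genes of melanization and opsonization, which act in the hemolymph beside the peptides, went 7 up and 1 down among 12 tested in smox. Their median log2 fold change was 0.19. Of all rows tested in smox, 18.5% rose and 39.3% fell, with a median of -0.14. TepIV, a thioester protein gene, rose from 9.31 to 58.1 FPKM and TepI from 3.77 to 7.53 FPKM. In baboACT 5 rose and 3 fell, with a median of 0.13, where 28.7% of all rows tested rose and 14.8% fell. TepIV fell there from 32.8 to 21.1 FPKM, while Sp7, a protease gene of the melanization cascade, rose from 7.69 to 38.3 FPKM. The prophenoloxidase gene proPO-A1 rose from 96.6 to 112 FPKM in smox (q = 0.00118, the authors' deposited table) and fell from 61.0 to 40.7 FPKM in baboACT.

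**Figure D4:**
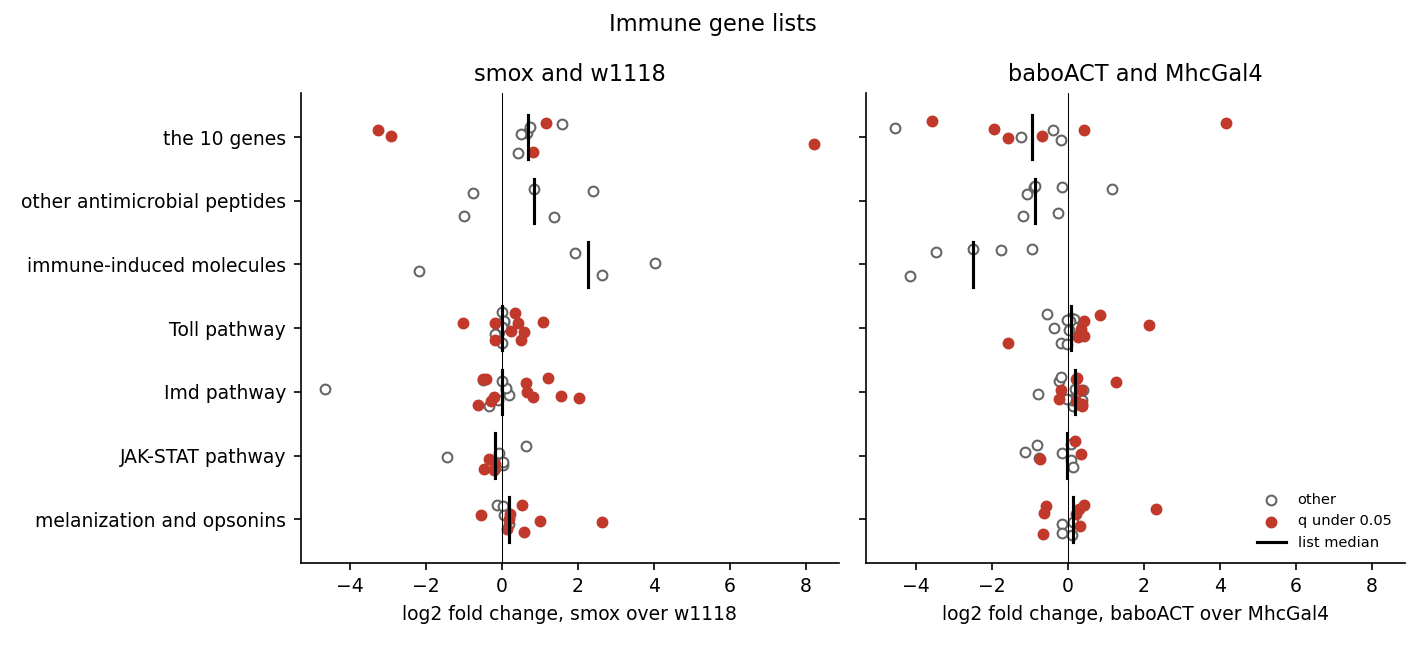
Log2 fold changes of the 10 genes and of 6 immune gene lists in smox over w1118 (left) and baboACT over MhcGal4 (right), 1 point per gene above 0 FPKM in both groups, filled where called in the authors' deposited table (q under 0.05), with a black line at each list's median and random vertical spread. The 10 genes spread from -3.26 to 8.22 on the left and from -4.55 to 4.16 on the right, while the medians of the Toll, Imd and JAK-STAT lists lie near 0.

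Markers of other cell types also changed, in directions that differed between and within lists, and their part in the results was not tested. In bulk carcasses, fewer cells of a type and less RNA per cell cannot be told apart. Of all rows tested, 18.5% rose and 39.3% fell in smox, and 28.7% rose and 14.8% fell in baboACT. Fat body markers, which mark the main source of secreted immune peptides, had 5 of 8 members up and 3 down in smox, and their summed level was 969 FPKM in w1118 and 1958 FPKM in smox. In baboACT 2 of 8 rose and 4 fell, and the sums were 1450 FPKM in MhcGal4 and 780.3 FPKM in baboACT. The 4 larval serum protein genes, Lsp1alpha, Lsp1beta, Lsp1gamma and Lsp2, held most of each sum and rose in smox, and in baboACT all but Lsp1alpha fell. Rfabg, a lipoprotein gene, also rose in smox and fell in baboACT, as Dro did. Fbp1 and fat-spondin fell in smox and rose in baboACT, as TotA did, with log2 fold changes of -1.10 and 1.47 for Fbp1 and -1.42 and 0.35 for fat-spondin (q = 0.00424 for the last, the authors' deposited table). Fbp2 fell in smox, by 0.96 on the log2 scale, and was not called in baboACT. No fat body or hemocyte marker was at 0.

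Of 10 midgut markers, 6 were tested in each experiment. In smox 5 fell, in baboACT 2 fell, and 0 rose in either, also at an unadjusted p under 0.05 in Cuffdiff. Of all rows tested, 39.3% fell in smox, and 14.8% fell and 28.7% rose in baboACT. The midgut sums were 436 FPKM in w1118 and 52.4 FPKM in smox, and 381 FPKM in MhcGal4 and 124 FPKM in baboACT. The baboACT sums rest on the protease genes Jon65Aiii, which fell there from 169 to 35.3 FPKM, and Jon65Aiv, which fell from 197 to 76.8 FPKM. The other 4 tested there were not called, with log2 fold changes between -0.51 and -0.02. lambdaTry and Jon25Biii were at 0 in 1 or both groups of each experiment, and thetaTry and Jon99Ci in those of the smox experiment. Salivary gland glue genes fell in 5 of 6 cases in smox, from a sum of 495 to 31.4 FPKM, and all 6 rose in baboACT, from 52.7 to 2098 FPKM, with none at 0. Listericin and TotA thus fell in smox together with the midgut and salivary gland sums, while dro5, Dro and PGRP-SA rose. In baboACT TotA and dro5 rose, as the salivary gland genes did, while Drs, AttA, Dro and AttC fell, as Jon65Aiii and Jon65Aiv did. The directions differed in smox for dro5, which rose where the salivary gland genes fell. They also differed there for Dro, which rose where Jon65Aiii and Jon65Aiv fell. Drs and AttA were not called in smox and AttC was not tested. These comparisons are of direction only, and the tissue in which each gene was expressed was not tested.

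Hemocyte markers went 1 up and 6 down in smox, with sums of 206 and 178 FPKM, and 2 up and 3 down in baboACT, with sums of 140.0 and 124 FPKM. Their median log2 fold change in smox was -0.29, and that of all rows tested was -0.14. Of all rows tested, 18.5% rose and 39.3% fell in smox, and 28.7% rose and 14.8% fell in baboACT. Tracheal markers, of a barrier epithelium that makes immune peptides locally, had 3 of 5 members up in smox and 1 down in baboACT. Their sums were 1268 and 1585 FPKM in w1118 and smox and 1268 and 1212 FPKM in MhcGal4 and baboACT, with none at 0.

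**Figure D5:**
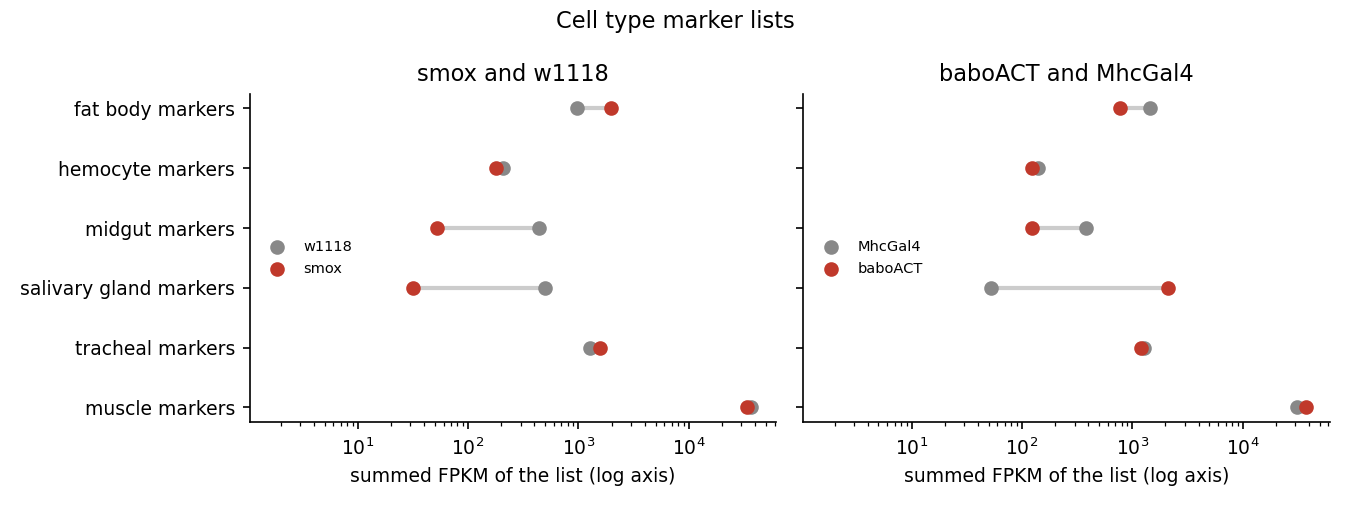
Summed FPKM of 6 cell type marker lists on a log axis, in the reference group (grey) and in smox (left) or baboACT (right, red), 1 value per group without error. Fat body sums lie higher in smox (1958 against 969 FPKM) and lower in baboACT (780.3 against 1450 FPKM), midgut sums lie lower in red on both sides, and salivary gland sums lie lower in smox and higher in baboACT; muscle sums are incomplete, since 3 muscle genes are listed at 0 in 1 or more groups.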

How the data were processed

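The 12 libraries were grouped by the genotype in their labels, and FPKM and tests came from 1 table per experiment. Per the submitters' processing notes, Cufflinks and Cuffdiff were used; versions, aligner, annotation and build were not stated in the sources used here. Per the file headers, the authors deposited 1 FPKM per gene and group, a test statistic (a score with no fixed range), a p-value and a q-value, and a log2 fold change. This log2 fold change differed from the one computed here by no more than 0.0400 (smox) or 0.0041 (baboACT). Only rows tested, with a mean of at least 1 FPKM and a finite log2 fold change, were compared. Of 13650 rows per table, 8218 in smox and 8262 in baboACT were tested. The others hold the p of 1 that Cuffdiff gives an untested gene. 0 columns hold single libraries, so the limma test written in the design could not be run, and the authors' q was used as that design foresaw. Fold changes were taken from FPKM with no pseudocount (Python 3.11.15, pandas 2.3.3), by functions tested on simulated data. Starts in the tables count from 0 and were raised by 1. Current symbols came from a RefSeq gene table of Release 6: 10500 of 13939 names matched a symbol and a further 3180 matched 1 synonym. Its gene lengths were also compared with the locus lengths to judge where starts count from. Of 9984 loci compared, 1184 had an equal length if starts count from 0 and 115 if they count from 1. The members and gene lists were chosen with earlier results of these data known. All 10 members were described, and list genes were named where called or where their role was described. No sequence is shown, and promoter motifs were not searched.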

Additional observations from a re-analysis of the deposited data

How the results depend on the processing

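All 20 log2 fold changes of the 10 genes kept their sign under pseudocounts of 1 and 0.1 FPKM, median-ratio scaling, quantile normalization and the authors' own log2 fold change, and the 4 of AttA and AttB did so when the pair was summed, an alternative chosen after seeing the data. Under median-ratio scaling they shifted by 0.14 in smox and -0.08 in baboACT, the opposite of the medians of all rows tested. Among called genes, the pseudocount of 1 FPKM moved Drs in baboACT most, from -3.57 to -2.68. In smox, 5 genes were called at a q under 0.01 and with a mean of at least 1 FPKM, and 4 with a log2 fold change of at least 1 in size. In baboACT, 6 genes were called with a mean of at least 1 FPKM, 4 with a log2 fold change of at least 1 in size and 3 at a q under 0.01, where 33.9% of all rows tested were called. The 3 lost there were Drs, AttC and TotA, by construction of the stricter threshold. The median over the genes in baboACT was -0.68 with a mean of at least 1 FPKM, since AttD left the list. No paired analysis was possible because the tables hold 1 value per group, and leaving out replicates could not be run for the same reason. Depth is unknown, and values under about 1 FPKM, such as those of AttC in smox and AttD, cannot be weighed against counting error.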
